A study of Mus musculus with 13 samples.

Results

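In the T cell receptor α chain tables, 10 V gene names carried both a TRAV and a DV designation, which marks segments that can be used in an α chain or in a δ chain. They were collected by name from all 13 samples, taking every clonotype whose V gene name started with TRAV and contained DV. This gave 9787 of the 90369 clonotypes listed (10.8%), from 10 of the 106 TRAV genes seen. Of these, 9784 were joined to a TRAJ segment and 3 to a TRDJ segment. A readable CDR3, without frameshift or stop codon, was present in 8585 of the TRAJ clonotypes, out of 78425 such clonotypes in the whole series (10.9%). These 8585 functional clonotypes held 919260 counts and 6184 different CDR3 amino acid sequences. The other 1199 carried a frameshift (1134) or a stop codon (65). The genes were taken by name and not by a measured value, though with earlier results of these data known.

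The libraries came from regulatory T (Treg) cells, sorted as TCRβ+, CD4+ and GFP+ but negative for the Thy1.1 reporter of the silenced allele, of spleen and lymph node of male C57BL/6 mice with the genotype Foxp3LSL/yCd4creERT2. In these mice a stop cassette flanked by loxP sites silences Foxp3, the transcription factor that Treg cells depend on, and Cre-ERT2 expressed from the Cd4 locus removes it when 4-hydroxytamoxifen (4-OHT) is given, which restores Foxp3 together with a GFP reporter. All mice received 1 dose of 4-OHT on postnatal day 14 and were sampled 1.5 months later (age 8 weeks, n = 2), 3 months later (age 3.5 months, n = 4), 5 months later (age 5.5 months, n = 2) or 7 months later (age 7.5 months, n = 5). Time since 4-OHT and age rose together in this design and cannot be told apart, and every group carried the same alleles and treatment, with no untreated group. The labels do not say that each sample was a separate mouse, so the p-values below measure the spread between these samples.

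Total counts per sample ran from 509818 to 936831, of which 476957 to 882128 were in functional clonotypes, so that 3 counts, the limit used for a clonotype not seen, corresponded to 0.000340% to 0.000629% of a sample. A count reflects cells and transcripts per cell together, which cannot be told apart here. The V and J pair of the invariant chain of NKT cells (TRAV11 with TRAJ18) had a median share of 0.0237% of functional counts and at most 0.117%. The pair of the MAIT chain (TRAV1 with TRAJ33) was seen in 5 samples at no more than 0.128%. Chains with any TRDJ segment, as γδ T cells use, made up 0.0156% to 0.0739% of the counts. The gate on TCRβ would leave out γδ T cells, and the libraries were built for α chain transcripts. Some libraries shared more CDR3 nucleotide sequences of these genes than others. The shared part of the joint list had a median of 1.95% over the 78 pairs of samples, whereas 3 months replicate 4 shared 8.09% with 5 months replicate 1 and 6.26% with 1.5 months replicate 1. The next pair shared 3.72%. Leaving out any 1 sample kept the direction and the call of each class difference against all other TRAV genes given below. Possible carry-over, meaning clonotypes that another library held at 100 times the count or more, concerned 355 of the 8585 (4.14%), with 0.0752% of the counts. It was uneven, with 65 of 564 in 5 months replicate 1 and 54 of 665 in 3 months replicate 4. The other samples had from 8 (7 months replicate 1) to 52 such clonotypes (3 months replicate 1).

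As background, the δ chain locus lies inside the α chain locus, between the TRAV segments and the TRAJ segments, so that joining a TRAV to a TRAJ segment deletes the δ segments that lie between them. The α locus can rearrange more than once on a chromosome. Early joins tend to use V segments close to the J array and J segments at its V-proximal end, and later joins replace them with V segments farther away and J segments farther downstream. TRAJ segments are numbered from the constant region outward, so a high J number means a J close to the V segments. Dual-use V segments are known from γδ T cells, where the CDR3 also takes up D segments.

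The part of each V segment that enters the CDR3 is shown first, because the first residues, length and charge described further on can be read against them. They are the germline bases from the conserved cysteine codon to the end of the exon, on the plus strand of chromosome 14 of GRCm38, and are given in lower case throughout since no part is singled out.

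TRAV15D-1-DV6D-1: tgtgctctctgggagctgg

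TRAV15D-2-DV6D-2: tgcgctctctcggaactga

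TRAV16D-DV11: tgtgctatgagagaggg

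TRAV14D-3-DV8: tgtgcagcaagtg

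TRAV15-1-DV6-1: tgtgctctctgggagctgg

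TRAV15-2-DV6-2: tgcgctctctcggaactga

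TRAV4-4-DV10: tgtgctgctgagg

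TRAV6-7-DV9: tgtgctctgagtga

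TRAV13-4-DV7: tgtgctatggaac

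TRAV21/DV12: tgtatcctgagagtag

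The list runs in genomic order, from the gene farthest from the J array to the nearest. TRAV15D-1-DV6D-1 (chr14:52863299-52863936) lay 1291.07 kb before the first TRAJ segment and TRAV21/DV12 (chr14:53875984-53876752) lay 278.253 kb before it. The others were TRAV15D-2-DV6D-2 at chr14:52956782-52957400, TRAV16D-DV11 at chr14:53047287-53047821, TRAV14D-3-DV8 at chr14:53078452-53079045, TRAV15-1-DV6-1 at chr14:53559632-53560247, TRAV15-2-DV6-2 at chr14:53649404-53649994, TRAV4-4-DV10 at chr14:53683647-53684177, TRAV6-7-DV9 at chr14:53709902-53710419 and TRAV13-4-DV7 at chr14:53757356-53757921. Each interval is the annotated V gene, leader included. The 4 genes of the TRAV15 family had the longest tails, with 19 bases that encode CALWEL in the copies numbered 1 and CALSEL in the copies numbered 2, while TRAV14D-3-DV8, TRAV4-4-DV10 and TRAV13-4-DV7 had 13 bases. TRAV21/DV12 (CILRV) encodes an arginine in this stretch, TRAV16D-DV11 (CAMRE) an arginine and a glutamate, and TRAV4-4-DV10 (CAAE) a glutamate.

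Names of near-identical copies limit what the tables can tell. Over the 250 bases before the conserved cysteine codon, TRAV15D-1-DV6D-1 had 0 mismatches to TRAV15N-1, which is not a DV gene by name. The tails printed above were not part of this comparison. TRAV16D-DV11 differed from TRAV16N by 3 bases, TRAV6-7-DV9 and TRAV13-4-DV7 from their D copies by 5 each, TRAV14D-3-DV8 from TRAV14-3 and TRAV4-4-DV10 from TRAV4D-4 by 8 each, and TRAV21/DV12 from its closest gene, TRAV2, by 88. The annotated TRAV16 and TRAV15N-2 had 0 clonotypes in any sample. Clonotypes named TRAV15N-1 and TRAV15D-1-DV6D-1 differed at the end of the V stretch. The germline T at CDR3 base 17 was present in 124 of 135 TRAV15N-1 clonotypes (91.9%) and in 4 of 109 TRAV15D-1-DV6D-1 clonotypes (3.67%), against 201 of 289 for TRAV15-1-DV6-1 (69.6%). How far the naming of these copies set the values of TRAV15D-1-DV6D-1 was not tested.

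The dual-use genes differed widely in use. TRAV4-4-DV10 was the most frequent, with 2703 functional clonotypes and rank 6 among all V genes. It made up 3.47% ± 0.413 of the functional clonotypes of a sample (SD, n = 13) and 4.57% ± 1.59 of the functional counts, from 2.81% in 7 months replicate 5 to 8.10% in 7 months replicate 4. TRAV14D-3-DV8 followed with 1532 clonotypes (1.96% ± 0.230 of clonotypes) and TRAV16D-DV11 with 1469 (1.88% ± 0.182), and these neighbours in the order lay within each other's spread. TRAV21/DV12 had 880 clonotypes (1.11% ± 0.149) and TRAV6-7-DV9 had 796 (1.01% ± 0.154), again within the spread. TRAV13-4-DV7 had 421 (0.531% ± 0.123). The TRAV15 genes were the rarest, with 289 clonotypes for TRAV15-1-DV6-1 (0.363% ± 0.0923), 212 for TRAV15-2-DV6-2 (0.264% ± 0.109), 174 for TRAV15D-2-DV6D-2 (0.221% ± 0.0859) and 109 for TRAV15D-1-DV6D-1 (0.139% ± 0.0857). Each value in this last group lay within the spread of the next.

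Which part of the J array these genes had joined was asked next. The functional dual-use clonotypes used J segments closer to the V segments than other TRAV clonotypes did. Their mean J number was 34.1 ± 0.742 per sample (SD, n = 13; lowest 32.9, highest 35.6), against 26.8 ± 0.317 for all other TRAV genes in the same libraries. The difference was 7.35 ± 0.780 and ranged from 6.36 to 9.21, so that it was positive in 13 of 13 samples (exact two-sided sign-flip permutation test, adjusted p = 0.000439 over 9 measures, the smallest value the design allows before adjustment being 0.000244). Against the other genes of the same families, TRAV4, TRAV6, TRAV13, TRAV14, TRAV15 and TRAV16 without DV in the name, the difference was 7.43 ± 0.807 (13 of 13, adjusted p = 0.000732). TRAV21/DV12 has no other gene in its family but stayed in the dual-use class here and in every comparison with own families below. Its 880 clonotypes had a pooled mean J number of 49.6. The family differences without it are not given. On the scale of distance before the constant region, the J segments lay at 36.4 kb for dual-use genes and at 28.6 kb for other genes. When the N and D copies that share a base name with a dual-use gene were counted as dual-use too, the difference in J number was 3.45.

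Within the class the mean J number was highest for the genes nearest to the J array. Pooled over samples it was 26.9 for TRAV15D-1-DV6D-1, 21.5 for TRAV15D-2-DV6D-2, 22.8 for TRAV16D-DV11 and 21.8 for TRAV14D-3-DV8, all in the distal part of the locus. It was 33.2 for TRAV15-1-DV6-1 and 30.9 for TRAV15-2-DV6-2 in the middle, and then 39.4 for TRAV4-4-DV10, 42.9 for TRAV6-7-DV9, 45.6 for TRAV13-4-DV7 and 49.6 for TRAV21/DV12. The last of these was the highest of the 89 V genes with at least 100 clonotypes. The sample means of the rare TRAV15 genes ranged widely, from 10.3 to 31.6 for TRAV15D-2-DV6D-2 and from 26.8 to 45.0 for TRAV15-2-DV6-2, the last value resting on 4 clonotypes in 5 months replicate 1, whereas TRAV21/DV12 stayed between 47.8 and 51.6. Across genes, which share libraries and are not independent replicates, the rank correlation of position with mean J number was 0.903 over the 10 dual-use genes and 0.631 over the other 79.

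**Figure D1:**
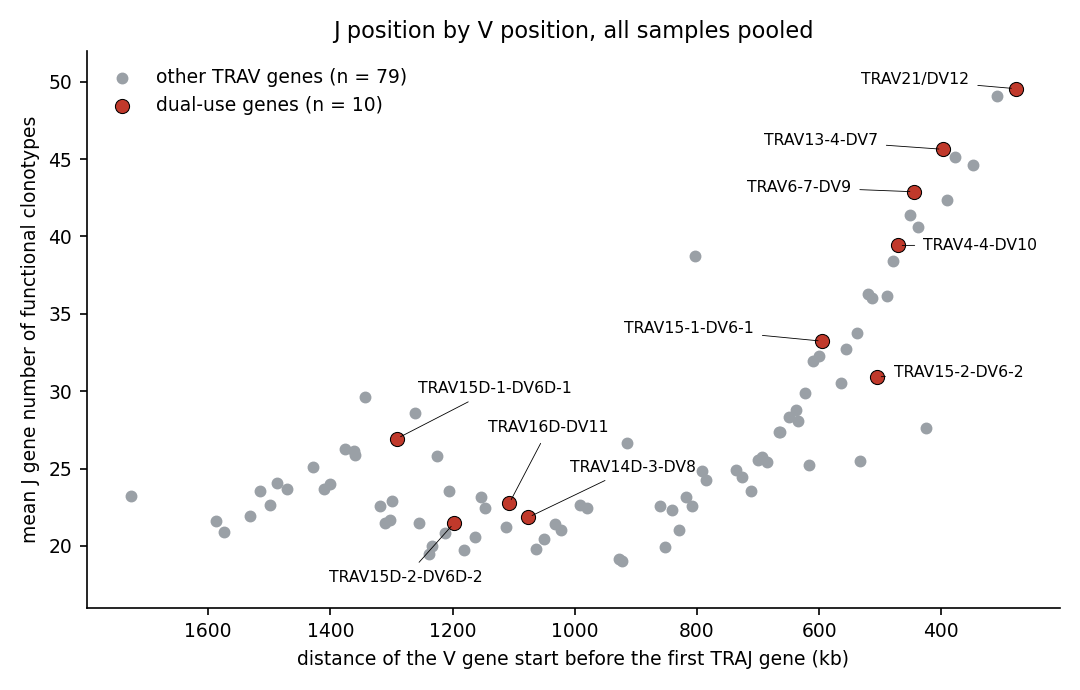
Mean J number of functional clonotypes (vertical axis) against the distance of the V gene before the first TRAJ segment in kb (horizontal axis), for the 89 V genes with at least 100 functional clonotypes; coloured points are the 10 dual-use genes and grey points the other 79. The proximal dual-use genes lie at the top, with TRAV21/DV12 highest at 49.6, and the distal ones between 21.5 and 26.9.

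Where the proximal copy of a gene had clonotypes, its mean J number was higher than those of its distal copies. TRAV4D-4 (3039 clonotypes) and TRAV4N-4 (252) had mean J numbers of 20.5 and 19.9, against 39.4 for TRAV4-4-DV10. TRAV6D-7 had 22.4 over 1294 clonotypes, against 42.9 for TRAV6-7-DV9, and TRAV13D-4 and TRAV13N-4 had 22.7 and 24.8, against 45.6 for TRAV13-4-DV7. In the TRAV14 family it was a distal copy that carried the DV name, and here the proximal TRAV14-3 had 42.3 over 1396 clonotypes, against 21.8 for TRAV14D-3-DV8 and 24.2 for the distal TRAV14N-3. For TRAV16 no such comparison was possible, since the annotated TRAV16, which lies in the proximal part, had 0 clonotypes. TRAV16N, a distal copy with 542 clonotypes and a start at 53351028, had 38.7 against 22.8 for TRAV16D-DV11. Among distal copies the order was not kept throughout, since TRAV15N-1 had 22.4 and the farther TRAV15D-1-DV6D-1 26.9, and TRAV4N-4 lay below the farther TRAV4D-4. How the aligner shared clonotypes between these copies was not tested. Within the TRAV15 family, TRAV15-1-DV6-1 and TRAV15-2-DV6-2 together (501 clonotypes) had a mean J number of 32.6 ± 2.43, and TRAV15D-1-DV6D-1 and TRAV15D-2-DV6D-2 together (283 clonotypes) had 23.02 ± 3.90. The difference, a comparison chosen after the data were seen, was 9.55 ± 4.53 and was positive in 13 of 13 samples (exact sign-flip permutation test, p = 0.000244).

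Each dual-use gene was also set against the 4 nearest TRAV genes without DV that had at least 100 clonotypes, a comparison that was likewise chosen after the data were seen. Weighted by clonotypes, the class then stood 1.69 ± 0.817 J numbers above its neighbours (SD, n = 13; from -0.291 to 3.22; higher in 12 of 13 samples; exact sign-flip permutation test, p = 0.000488), a smaller difference than the 7.35 against all other genes. It was 1.58 with the 2 nearest genes, 2.73 with the 6 nearest and 1.42 with the median of the 4 nearest, and passed the test each time. The genes did not all go the same way. TRAV13-4-DV7 was 6.48 ± 2.68 above its neighbours, TRAV6-7-DV9 5.53 ± 1.05 and TRAV21/DV12 4.27 ± 1.46, each in 13 of 13 samples (adjusted p = 0.000814 over 10 genes). TRAV13-3, a gene of 112 clonotypes with a mean J number of 27.6, was among the neighbours of TRAV6-7-DV9 and TRAV13-4-DV7. With the median of the 4 neighbours in place of the mean, these differences were 3.50 and 4.33, while that of TRAV21/DV12 was 4.54. All 4 neighbours of TRAV21/DV12 lie on its distal side, up to 112.8 kb away. Its difference from them, by mean or median, therefore cannot be told apart from the rise of J number towards the J array. The nearest, TRAV19, had a pooled mean J number of 49.11, against 49.55 for TRAV21/DV12. Without TRAV21/DV12 the class difference was 1.41 (exact sign-flip permutation test, p = 0.000977). TRAV15D-1-DV6D-1 was 5.45 ± 5.04 above (11 of 13, adjusted p = 0.00586) and TRAV15-1-DV6-1 3.97 ± 4.27 above (10 of 13, adjusted p = 0.0110). TRAV15-2-DV6-2 went the other way, with a difference of -5.35 ± 4.55 that was negative in 12 of 13 samples (adjusted p = 0.00586). TRAV16D-DV11 and TRAV14D-3-DV8 differed from theirs by 1.02 and 1.05 (adjusted p = 0.0919 for each), and the former passed the threshold with the median of its neighbours (1.12, adjusted p = 0.0283). TRAV4-4-DV10, the most used gene, differed by 0.21 ± 1.09 and TRAV15D-2-DV6D-2 by -1.01 ± 5.72 (adjusted p = 0.537 for each).

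Single J segments were compared between the classes by edgeR's quasi-likelihood test on numbers of clonotypes, paired within samples. Of 43 TRAJ segments tested, 16 were used more by dual-use genes (37.2%) and 22 less (51.2%), at an adjusted p under 0.05. All 13 tested segments from TRAJ41 upward were used more, with a median log2 fold change of 1.25. Of the 16 tested segments up to TRAJ23, 15 were used less, with a median of -0.75. In the stretch between them, 3 were used more and 7 less. The segments not called were TRAJ7, TRAJ32, TRAJ37, TRAJ38 and TRAJ39. The strongest differences upward were at the V-proximal end, with log2 fold changes of 1.63 ± 0.157 for TRAJ58 (SE, adjusted p = 1.93e-15), 1.59 for TRAJ57 (adjusted p = 2.86e-21), 1.57 for TRAJ56 (adjusted p = 4.30e-21), 1.36 for TRAJ50 (adjusted p = 3.66e-14) and 1.28 for TRAJ52 (adjusted p = 6.01e-16). The strongest downward were -1.35 ± 0.230 for TRAJ24 (adjusted p = 1.80e-07), -1.17 for TRAJ6 (adjusted p = 2.10e-11), -1.08 for TRAJ13 (adjusted p = 2.75e-14), -1.02 for TRAJ18 (adjusted p = 1.48e-10) and -0.98 ± 0.267 for TRAJ28 (adjusted p = 0.000565). For TRAJ28 the call was lost with summed counts in place of clonotypes (-1.63, adjusted p = 0.0850).

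Put as shares, segments from TRAJ41 upward took 38.0% ± 1.77 of dual-use clonotypes and 16.5% ± 0.744 of the others (SD, n = 13). TRAJ24 to TRAJ40 took 32.2% ± 2.28 and 36.1% ± 0.884, and TRAJ2 to TRAJ23 took 29.8% ± 2.12 and 47.4% ± 1.09. The lowest dual-use share of the first stretch, 35.2%, was above the highest share of the others, 17.9%. The partners differed from gene to gene. TRAV21/DV12 joined TRAJ57 in 18.2% of its clonotypes, TRAJ58 in 12.6% and TRAJ56 in 10.9%, and 84.8% of them used TRAJ41 or higher. TRAV13-4-DV7 joined TRAJ56 and TRAJ57 most (10.5% each), TRAV6-7-DV9 joined TRAJ49 (10.9%), and TRAV4-4-DV10 was spread more evenly, with TRAJ40 at 6.77% and TRAJ49 at 6.18%. Distal genes led with other segments, TRAJ15 (9.40%) and TRAJ21 (8.81%) for TRAV14D-3-DV8, TRAJ21 (7.69%) and TRAJ15 (7.56%) for TRAV16D-DV11, TRAJ30 (11.9%) for TRAV15D-1-DV6D-1 and TRAJ9 (12.6%) for TRAV15D-2-DV6D-2. TRAJ32 was the first choice of TRAV15-1-DV6-1 (8.65%) and, level with TRAJ37, of TRAV15-2-DV6-2 (8.49% each).

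**Figure D2:**
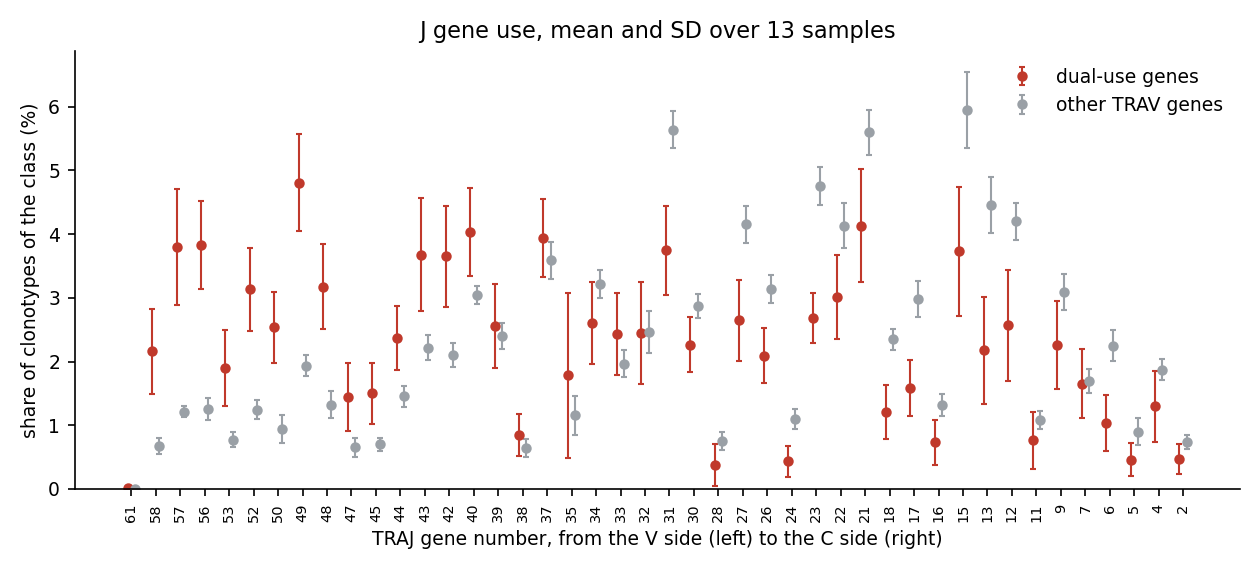
Share of functional clonotypes by J segment along the array from the V-proximal end to the constant region, for dual-use genes and for all other TRAV genes; points are means over 13 samples and bars the SD. Dual-use clonotypes stand above the others from TRAJ41 upward (38.0% against 16.5% in all) and below them downstream of TRAJ24 (29.8% against 47.4%).

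The CDR3 loops of the class were then compared. Dual-use CDR3s were longer, at 13.9 ± 0.0694 residues against 13.4 for all other TRAV genes, a difference of 0.444 ± 0.0706 (13 of 13 samples, exact sign-flip permutation test, adjusted p = 0.000439). Bases inserted between the V and J parts, by the deposited positions, numbered 1.92 ± 0.152 against 2.19, a difference of -0.264 ± 0.150 (lower in 12 of 13, adjusted p = 0.000942), and clonotypes with none made up 34.7% against 30.5%, a difference of 4.26 ± 2.40 percentage points (higher in 12 of 13, adjusted p = 0.000732). The deposited V end lay past the annotated end of the V segment in 28.0% of dual-use clonotypes and 22.9% of those of the 91 other genes with such an end, and with the V end held to that point the differences were -0.209 bases (adjusted p = 0.00183) and 3.04 percentage points (adjusted p = 0.00251), an alternative chosen after the data were seen. The net charge, lysine and arginine less aspartate and glutamate, was 0.563 against 0.730, a difference of -0.167 ± 0.0420 (lower in 13 of 13, adjusted p = 0.000439). Against the other genes of the same families, again with TRAV21/DV12 kept in the class, the length differed by 0.553 (adjusted p = 0.000732), the inserted bases by -0.199 (11 of 13 lower, adjusted p = 0.00256) and the share without inserts by 3.74 percentage points (adjusted p = 0.000879). Weighted by counts, neither of these last 2 differences passed (-0.155, adjusted p = 0.0612, and 4.35 percentage points, adjusted p = 0.0913). The difference in charge there was -0.0299 (11 of 13 lower, adjusted p = 0.0210), and this call was lost when possible carry-over between libraries was left out (-0.0257, adjusted p = 0.0628). TRAV21/DV12, with a mean net charge of 1.57, was on the dual-use side of this comparison and has no family gene on the other. The value is therefore not a difference within families alone.

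The genes themselves spread more widely than the class differed from the rest. CDR3s of TRAV15-1-DV6-1 had 15.8 ± 0.388 residues, those of TRAV15-2-DV6-2 15.5 ± 0.397, TRAV15D-1-DV6D-1 15.4 ± 0.474 and TRAV15D-2-DV6D-2 15.03 ± 0.385, which placed them 2nd, 3rd, 4th and 6th in length among the 89 genes. Copies without DV in their names were 1st (TRAV15N-1, 15.8 ± 0.340) and 5th (TRAV16N, 15.1 ± 0.129). TRAV21/DV12 had 14.5 ± 0.191, TRAV16D-DV11 14.4 ± 0.147 and TRAV6-7-DV9 14.1 ± 0.203. The genes with 13-base tails had the shortest loops, 13.4 ± 0.0901 for TRAV4-4-DV10, 13.4 ± 0.291 for TRAV13-4-DV7 and 13.2 ± 0.118 for TRAV14D-3-DV8. None of these means was above the 13.45 of all other TRAV genes, while those of the other dual-use genes were. TRAV4-4-DV10 and TRAV14D-3-DV8 were the most used genes of the class. How often the loop opened with its germline residues differed between genes. It began with CALW in 98.3% of TRAV15-1-DV6-1 and 96.3% of TRAV15D-1-DV6D-1 clonotypes, with CALS in 93.9% of TRAV15-2-DV6-2 and 94.3% of TRAV15D-2-DV6D-2 clonotypes, with CAMR in 88.6% of TRAV16D-DV11 and with CILR in 82.2% of TRAV21/DV12. It began with CALS in 72.6% of TRAV6-7-DV9, CAAS in 64.2% of TRAV14D-3-DV8, CAAE in 53.9% of TRAV4-4-DV10 and CAME in 39.2% of TRAV13-4-DV7. The mean net charge ran from 1.57 for TRAV21/DV12 and 0.940 for TRAV16D-DV11 to 0.0866 for TRAV4-4-DV10, -0.202 for TRAV15D-1-DV6D-1 and -0.260 for TRAV15-1-DV6-1. Clonotypes without inserted bases were most common for TRAV16D-DV11 (40.4%) and least for TRAV14D-3-DV8 (26.2%).

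Non-functional rearrangements are usually carried on the other chromosome of a cell whose working α chain comes from the first, and they are counted here from their transcripts. As a class the dual-use genes had 12.2% ± 1.98 non-functional clonotypes against 13.2% for all other TRAV genes, a difference of -0.996 percentage points (lower in 9 of 13, adjusted p = 0.134). With the N and D copies counted as dual-use it was -2.56 percentage points and passed (adjusted p = 0.000366). TRAV15 genes stood out within the class, with 30.4% ± 12.3 for TRAV15-1-DV6-1, 37.2% ± 13.1 for TRAV15-2-DV6-2, 27.2% ± 15.04 for TRAV15D-1-DV6D-1 and 25.4% ± 12.7 for TRAV15D-2-DV6D-2. TRAV15N-1, which has no DV in its name, had 27.8% ± 18.2. Among the 89 genes the 4 dual-use TRAV15 genes ranked between 4th and 12th and TRAV15N-1 ranked 6th by pooled share, where the other genes had a median of 11.7% and a range of 2.33% to 46.7%. TRAV13-4-DV7 had 19.3% ± 6.06 and TRAV6-7-DV9 12.2% ± 3.57. The remaining genes lay lower, at 10.1% ± 3.13 for TRAV16D-DV11, 9.74% ± 2.53 for TRAV4-4-DV10, 9.50% ± 4.37 for TRAV21/DV12 and 5.43% ± 2.51 for TRAV14D-3-DV8. These shares are a description without a test.

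**Figure D3:**
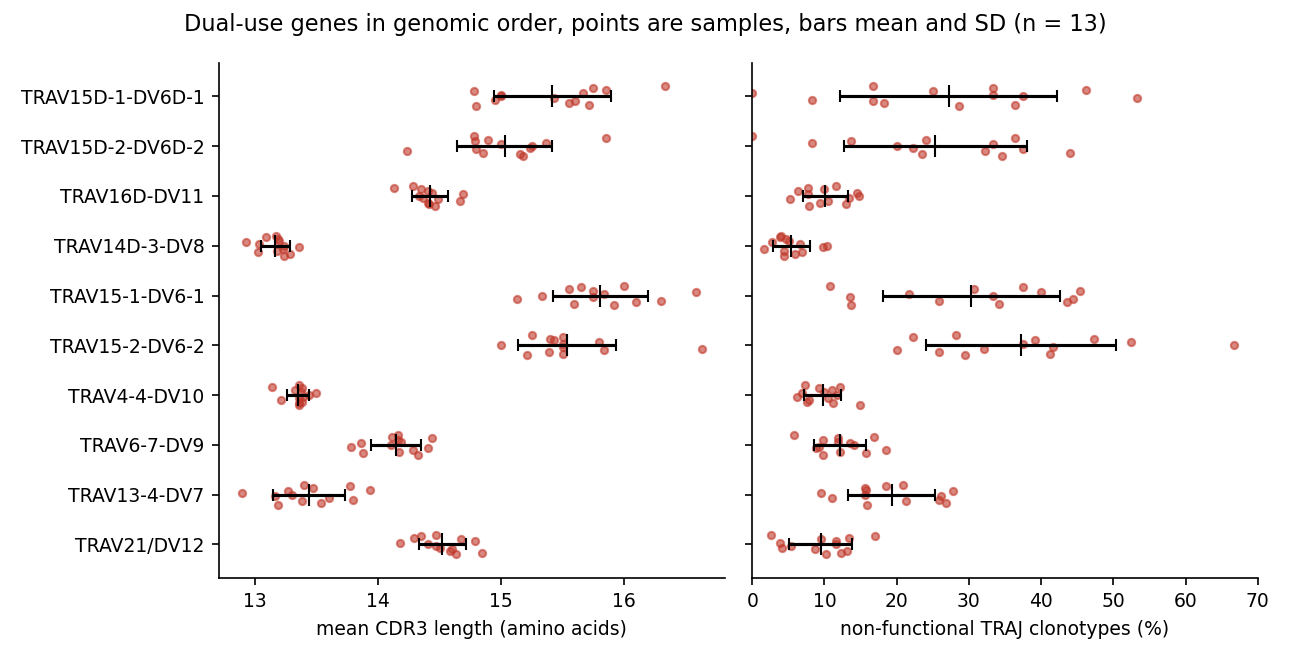
Mean CDR3 length in residues (left) and share of non-functional clonotypes in percent (right) for the 10 dual-use genes in genomic order; points are the 13 samples and black bars the mean and SD. The 4 TRAV15 genes have the longest loops, 15.03 to 15.8 residues, and the highest non-functional shares, 25.4% to 37.2%.

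Clone sizes were compared next. The median dual-use clonotype was larger, with a log2 median count of 6.00 against 5.76 for all other TRAV genes, a difference of 0.240 ± 0.108 (higher in 13 of 13 samples, exact sign-flip permutation test, adjusted p = 0.000439). Against the other genes of the same families the difference was 0.145 (13 of 13, adjusted p = 0.000732), and it was 0.00579 when the N and D copies were counted as dual-use (adjusted p = 0.894). TRAV21/DV12, with a median of 82 counts and no family gene to compare with, was kept in the class for this. Clonotypes above 0.1% of a sample's functional counts made up 1.78% ± 0.641 of dual-use clonotypes and 1.61% ± 0.518 of the others, a difference of 0.166 percentage points that did not pass the test (higher in 10 of 13, adjusted p = 0.280). It was 0.0853 without 7 months replicate 1 and 0.0939 with the N and D copies counted as dual-use, neither of which passed. Over all samples pooled this share was 5.50% for TRAV15D-1-DV6D-1 (109 clonotypes), 3.45% for TRAV15D-2-DV6D-2 (174), 2.61% for TRAV21/DV12, 2.36% for TRAV15-2-DV6-2 and 2.33% for TRAV4-4-DV10. It was 1.38% for TRAV15-1-DV6-1, 1.24% for TRAV14D-3-DV8, 0.817% for TRAV16D-DV11, 0.713% for TRAV13-4-DV7 and 0.628% for TRAV6-7-DV9. Pooling takes no account of time, and the share of the class ran from 1.35% at 1.5 months to 2.37% at 5 months. Dual-use clonotypes held 12.1 ± 3.73 of the 100 largest places of a sample (6 to 19) and 14 of the 130 places among the 10 largest (10.8%), where they made up 10.9% of all functional clonotypes.

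The largest dual-use clonotype of each sample was described without a test. At 7 months replicate 5 it was TRAV15-2-DV6-2 joined to TRAJ37 in a loop of 15 residues that begins with CALSEL, with 24412 counts or 4.59% of the functional counts (95% Wilson interval 4.54% to 4.65%, for counting error only, as for the intervals that follow). It was the largest clonotype of that sample and of the 7-month group, and held 33.3% of the dual-use counts there. Among dual-use clonotypes the same CDR3 was found with 15 counts in 3 months replicate 1 (0.00201%) and with 1 or 2 counts in 5 more samples, all of which fall under the definition of possible carry-over above. With any V gene this CDR3 was found in 8 samples, against 7 with dual-use genes alone. No other clonotype of its sample lay within 2 mismatches of it. The authors' error correction discarded much smaller clonotypes within 2 mismatches of a larger one, so such neighbours could have been removed by processing. At 7 months replicate 4 the largest was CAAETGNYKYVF, TRAV4-4-DV10 joined to TRAJ40, with 11135 counts or 2.33% (2.29% to 2.38%), again the largest of its sample. This sequence also led the dual-use clonotypes of 1.5 months replicate 1, with 5580 counts or 1.01% (0.982% to 1.03%), and was seen in 8 samples with a single nucleotide sequence. In the other 6 samples it had 4 to 471 counts, and in 4 of these (4, 9, 58 and 102 counts) it falls under the definition of possible carry-over, which leaves 4 samples.

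The sequences of the leading clonotypes are shown because they let a reader see how much of each loop was assigned to the V and J segments. Capitals mark bases inserted between the V and J parts by the deposited positions, and a sequence without capitals has none.

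TRAV15-2-DV6-2 with TRAJ37, 7 months replicate 5: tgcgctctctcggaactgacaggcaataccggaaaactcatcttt

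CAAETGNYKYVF, TRAV4-4-DV10 with TRAJ40, 7 months replicate 4: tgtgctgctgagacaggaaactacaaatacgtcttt

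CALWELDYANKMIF, TRAV15-1-DV6-1 with TRAJ47, 1.5 months replicate 2: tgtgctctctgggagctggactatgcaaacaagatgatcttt

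TRAV15D-1-DV6D-1 with TRAJ30, 5 months replicate 2: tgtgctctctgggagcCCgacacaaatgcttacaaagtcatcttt

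The first of these keeps the whole 19-base tail of TRAV15-2-DV6-2 printed above. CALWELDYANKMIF was the largest dual-use clonotype of 1.5 months replicate 2 (0.450%) and had 413 counts in 3 months replicate 1. The TRAV15D-1-DV6D-1 clonotype with TRAJ30 led in 5 months replicate 2 (0.887%) and was seen in 2 more samples, with 955 counts in 3 months replicate 2 and 1 count in 3 months replicate 1. The remaining leaders were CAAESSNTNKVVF with TRAJ34 at 5 months replicate 1 (1.68%), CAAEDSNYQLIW with TRAJ33 at 3 months replicate 3 (0.679%), a loop with TRAJ27 and 9 inserted bases at 7 months replicate 1 (0.245%) and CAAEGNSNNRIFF with TRAJ31 at 7 months replicate 3 (0.196%), all on TRAV4-4-DV10. TRAV16D-DV11 gave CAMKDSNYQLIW at 3 months replicate 4 (0.407%) and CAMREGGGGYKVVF at 7 months replicate 2 (0.253%), TRAV14D-3-DV8 gave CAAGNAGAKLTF at 3 months replicate 1 (0.380%), and TRAV13-4-DV7 gave CAMETGSGGKLTL at 3 months replicate 2 (0.183%). TRAV4-4-DV10 thus supplied the leader in 6 of 13 samples. It also held 2703 of the 8585 functional clonotypes of the class and 341488 of their 919260 counts. By group the largest clonotype took 0.729% ± 0.395 at 1.5 months (n = 2), 0.412% ± 0.204 at 3 months (n = 4), 1.29% ± 0.563 at 5 months (n = 2) and 1.52% ± 1.94 at 7 months (n = 5), the last with 3 samples below 0.3% beside the pair at 2.33% and 4.59%.

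**Figure D4:**
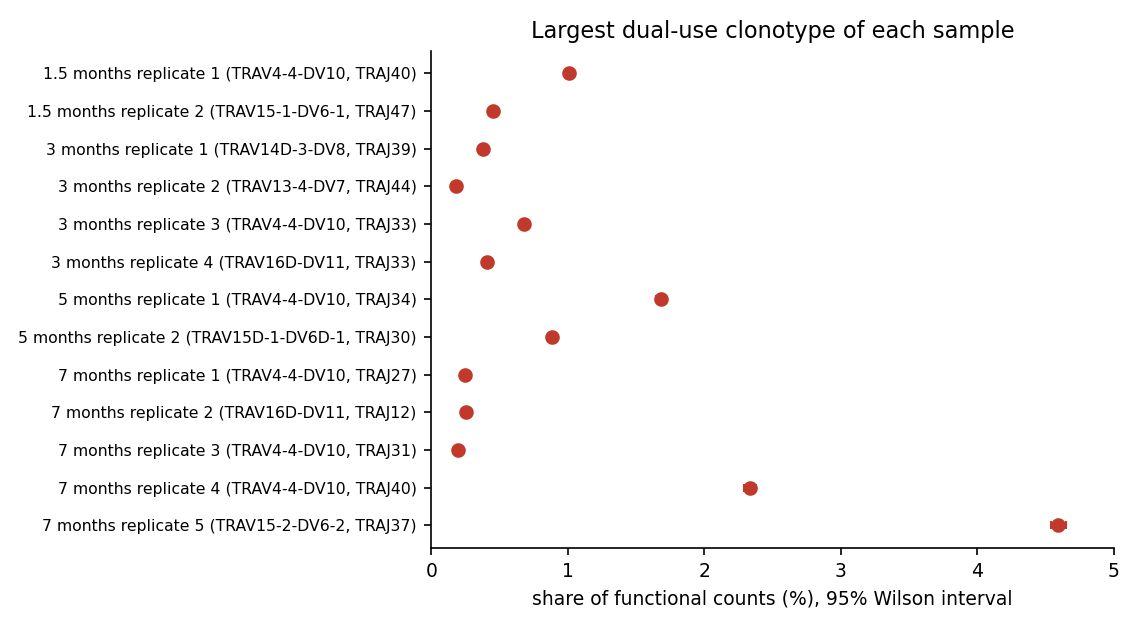
Share of functional counts, in percent, held by the largest dual-use clonotype of each of the 13 samples, by month after 4-OHT; each mark is a sample and its bar the 95% Wilson interval for counting error. 7 months replicate 5 (4.59%) and 7 months replicate 4 (2.33%) stand above the other samples.

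Sharing of CDR3 sequences between samples was lower for dual-use genes. In a sample, 57.9% ± 3.97 of dual-use clonotypes had a CDR3 amino acid sequence that was also found in another sample with any V gene, against 61.5% ± 2.53 of other TRAV clonotypes, a difference of -3.64 ± 2.32 percentage points (lower in 13 of 13, exact sign-flip permutation test, adjusted p = 0.000439). With the N and D copies counted as dual-use the difference was -0.553 (adjusted p = 0.327). Of the 6184 different sequences, 57.4% occurred in a single sample and 472 (7.63%) in 7 or more when clonotypes of any V gene were counted. Counting only clonotypes with a dual-use V gene, 79.1% occurred in a single sample, 33 (0.534%) in 7 or more and none in all 13. Counted within their own class, the 37215 sequences of the other TRAV genes gave 71.4%, 904 (2.43%) and 53, but that class holds many more genes through which a sequence can recur, so these shares were not tested against each other. The sequences named next were chosen, and their samples counted, over dual-use clonotypes alone. A TRAV16D-DV11 loop with TRAJ12 that begins with CAMREG was found in 11 samples, also the number with any V gene, and was encoded by 3 nucleotide sequences, at a mean of 0.0281% and up to 0.210% in 5 months replicate 1. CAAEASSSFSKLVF, TRAV4-4-DV10 with TRAJ50, was found in 10 samples, or 12 with any V gene, from 4 nucleotide sequences (mean 0.0464%). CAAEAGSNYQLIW, TRAV4-4-DV10 with TRAJ33, was found in 10 samples, or 11 with any V gene, from 5 nucleotide sequences (mean 0.0463%). In 5 months replicate 2 it had 1 count, which falls under the definition of possible carry-over, so that 9 samples were left without it.

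The 5 nucleotide sequences of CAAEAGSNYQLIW are shown because the same loop was reached by different joins, with inserted bases in capitals and the number of samples that held each one. Lower case marks bases assigned to V or J by the deposited positions, and here the V part includes 1 or 2 bases (c or cc) beyond the 13-base tail of TRAV4-4-DV10. The sample with 1 count is among the 3 of the last sequence.

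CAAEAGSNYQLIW, 0 inserted bases, 1 sample: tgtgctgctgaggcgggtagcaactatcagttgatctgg

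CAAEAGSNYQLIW, 1 inserted base, 1 sample: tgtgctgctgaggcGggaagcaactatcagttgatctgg

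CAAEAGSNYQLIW, 2 inserted bases, 3 samples: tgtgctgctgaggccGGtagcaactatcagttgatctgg

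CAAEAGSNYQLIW, 3 inserted bases, 2 samples: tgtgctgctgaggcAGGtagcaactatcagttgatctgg

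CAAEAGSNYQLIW, 4 inserted bases, 3 samples: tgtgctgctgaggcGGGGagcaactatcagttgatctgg

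By contrast, the most common form of the TRAV16D-DV11 loop with TRAJ12, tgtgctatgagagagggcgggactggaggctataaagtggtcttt, was present in 10 samples and contains the full 17-base tail of TRAV16D-DV11. The most common form of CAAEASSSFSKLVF, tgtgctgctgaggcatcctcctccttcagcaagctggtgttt, was present in 9 samples. Neither form has an inserted base.

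Only 3 dual-use clonotypes were joined to a δ chain J segment, all of them TRAV21/DV12 with TRDJ1 and all at 1.5 months. They are shown with capitals for the bases between the V and J parts.

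TRAV21/DV12 with TRDJ1, 63 counts: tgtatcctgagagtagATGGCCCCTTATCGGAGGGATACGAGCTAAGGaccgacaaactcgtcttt

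TRAV21/DV12 with TRDJ1, 16 counts: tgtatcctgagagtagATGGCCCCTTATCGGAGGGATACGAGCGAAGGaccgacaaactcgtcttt

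TRAV21/DV12 with TRDJ1, 75 counts: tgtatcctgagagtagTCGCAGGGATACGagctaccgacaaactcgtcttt

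The first had 63 counts in 1.5 months replicate 1 (0.0105% of all counts, Wilson interval 0.00822% to 0.0134%). The second, with 16 counts in the same sample (0.00267%), differed from it by T44G, counted from the first base of the CDR3 and with the more abundant sequence first. The third had 75 counts in 1.5 months replicate 2 (0.0119%). All keep the 16 germline bases of TRAV21/DV12, and 32, 32 and 13 bases lie between V and J. The first and second were assigned the D segment TRDD1 and the third no D segment. These numbers and the 1.92 inserted bases of functional TRAJ clonotypes of the class, which have no D segment, are not like measures. The TRDJ clonotypes of the class held 154 of the 2955 counts with a TRDJ segment (5.21%) and made up 0.307% of the 976 TRAV21/DV12 clonotypes. The other 11 samples and the other 9 genes had 0 such clonotypes, which at 3 counts allows up to 0.000320% to 0.000588% of a sample. The libraries were built for α chain transcripts, with primers for the α constant region beside oligo(dT). These numbers therefore do not measure how often the cells used the genes in δ chains.

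Use of the class was then followed over time after 4-OHT. Dual-use genes held 11.1% ± 0.105 of functional clonotypes at 1.5 months (11.2% and 11.1%), 10.6% ± 0.442 at 3 months (10.7%, 10.7%, 11.1% and 10.0%), 10.8% ± 0.399 at 5 months (10.5% and 11.04%) and 11.2% ± 0.558 at 7 months (10.8%, 10.6%, 11.6%, 11.3% and 11.95%). At 7 months 2 of 5 samples lay below both samples at 1.5 months and 3 above them. At 5 months both samples lay below, as did 3 of 4 at 3 months. The difference between 7 and 1.5 months was 0.0955 percentage points (exact permutation test, p = 0.983 corrected over the 3 later times). Of the functional counts they held 13.2% ± 0.0963, 11.2% ± 1.14, 11.9% ± 0.0205 and 12.8% ± 2.81 in the same order, with 12.1%, 9.49%, 11.4%, 16.95% and 13.8% in the 5 samples at 7 months. The samples at 3 and 5 months lay below those at 1.5 months, and those at 7 months on either side (7 against 1.5 months -0.398, p = 0.989, exact permutation test). Without the largest dual-use clonotype the share of counts was 14.6% in place of 16.95% in 7 months replicate 4 and 9.21% in place of 13.8% in 7 months replicate 5. TRAV15-2-DV6-2 held 4.88% of the counts in replicate 5 and 0.164% to 0.377% in the other 4 samples of that time.

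**Figure D5:**
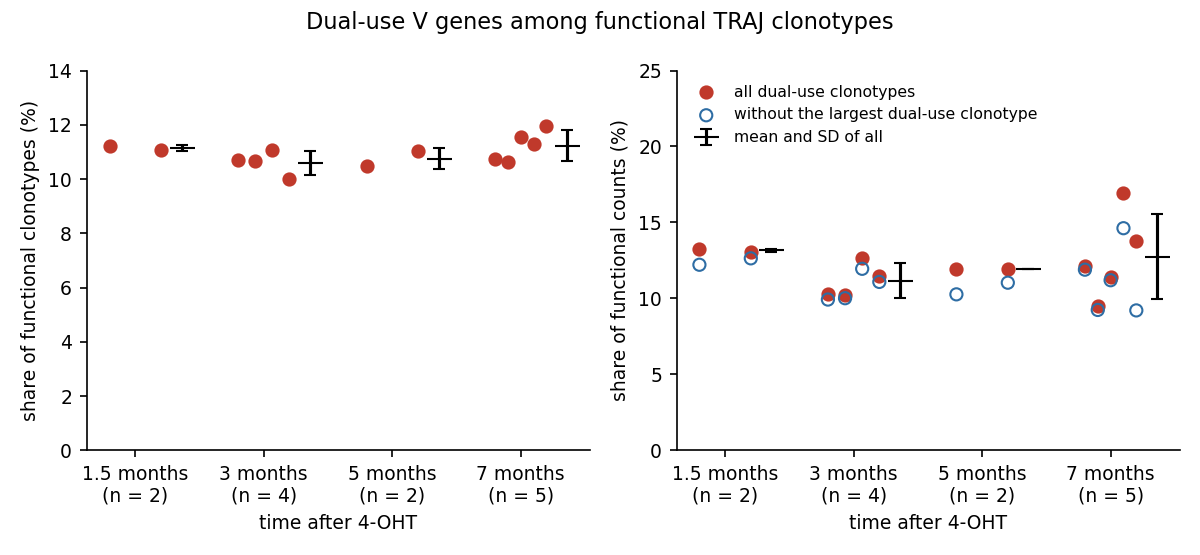
Share of functional clonotypes (left) and of functional counts (right) held by dual-use genes, in percent, by month after 4-OHT; filled points are samples, black marks beside them the mean and SD, and open points on the right the share without the largest dual-use clonotype. All samples lie between 10.0% and 11.95% on the left, and the 7-month samples spread from 9.49% to 16.95% on the right.

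With all samples in, no position or loop measure passed a test between times. The mean J number of the class was 34.6 at 1.5 months, 34.3 at 3 months, 34.2 at 5 months and 33.7 at 7 months (7 against 1.5 months -0.823, exact permutation test, p = 0.433). The mean length was 13.93, 13.95, 13.83 and 13.85 residues. By the same exact permutation test its difference from 1.5 months was -0.102 at 5 months (p = 0.192) and -0.0752 at 7 months (p = 0.266). Inserted bases numbered 1.89, 2.08, 1.87 and 1.83 on average, and clonotypes without them made up 35.2%, 32.4%, 35.0% and 36.3%. Over 8 measures and 3 later times, 0 of 24 exact permutation tests passed, with a smallest corrected p of 0.192 and 0 below 0.05 before adjustment over the 24. Of 8 trends over months computed in the 13 samples, the CDR3 length gave r = -0.591 (permutation p = 0.0357, adjusted p = 0.283 over the 8) and rho = -0.639 (p = 0.0224, adjusted p = 0.179). Without the pair of samples farthest from the median month, both at 1.5 months, r was -0.575 (permutation p = 0.0675). The other 7 trends also had adjusted p-values above 0.05. Among them, without the same pair of samples, inserted bases had r = -0.706 (permutation p = 0.00251; r = -0.473 with all samples) and the share without inserts r = 0.694 (permutation p = 0.00623; r = 0.460 with all samples). These p-values were not adjusted over the 8.

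Use of single V genes was tested with edgeR's quasi-likelihood test on numbers of functional clonotypes. Of 90 V genes, 0 were called (0.00%) at 3, 5 or 7 months against 1.5 months or at 7 against 3 months, and DESeq2 called 0 in each of these contrasts as well. Against 1.5 months, edgeR called 3, 3 and 1 genes with a replicate block, 2 genes each at 3 and 5 months with at least 2 counts per clonotype, and up to 2 with a sample left out, none of them a dual-use gene. Before adjustment, p was under 0.05 for 10 genes (11.1%), 8 (8.89%), 6 (6.67%) and 1 (1.11%) in these contrasts. Among the 40 tests of the 10 dual-use genes it was so in 2. TRAV4-4-DV10 had a log2 fold change of -0.29 ± 0.115 at 3 months (SE, unadjusted p = 0.0172, adjusted p = 0.224 by edgeR), with 3.48% and 4.16% of clonotypes at 1.5 months and 3.24%, 3.52%, 2.93% and 2.96% at 3 months. Its change was -0.14 without 1.5 months replicate 2. TRAV15-2-DV6-2 had -1.45 ± 0.524 at 5 months (unadjusted p = 0.00887, adjusted p = 0.173), with 24 and 30 clonotypes at 1.5 months and 4 and 10 at 5 months. This was -0.95 without 5 months replicate 1 and -2.33 without 5 months replicate 2.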

How the data were processed

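Libraries were made by the authors from TCRα transcripts by 5′ RACE with a template-switch oligo that carries random bases, assembled with MiXCR and written as VDJtools tables, with GRCm38 named in the submitters' processing notes. The deposited tables list, per sample, a count and a fraction for each clonotype (CDR3 nucleotide sequence with its V, D and J genes) and the positions where V ends and J starts. The deposited count is a whole number. Whether it is of reads or of molecules is not given in the sources used here, so intervals cover counting error only. Shares were computed again from the counts, since the authors' fraction refers to all clonotypes.

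Gene positions and germline sequences came from the GRCm38 annotation and genome. Inserted bases were those between the deposited V end and J start. Samples were grouped by months after 4-OHT. Time comparisons used exact permutation over 540540 arrangements (largest statistic of 3 comparisons) and trends 100000 permutations. Class comparisons used exact sign-flips over 8192 signs, with Benjamini-Hochberg adjustment. V and J use were tested with edgeR 4.0.16 (quasi-likelihood, TMM, filterByExpr), with DESeq2 1.42.0 as alternative, in R 4.3.3, and the rest in Python 3.11.15 with scipy 1.17.1. The permutation, sign-flip and edgeR tests were tested on simulated data. Alternatives were minimum counts of 2 and 10, equal depth (mean of 10 draws), merging by amino acid sequence, weighting by counts, removal of possible carry-over, extension of the class to N and D copies, another scale of J position, another number of neighbouring genes or their median, V ends held to the annotated segment, and leaving out each sample.

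The members and lists were chosen with earlier results of these data known. Named were all DV genes, up to 5 J segments in each direction by size among those with an adjusted p under 0.05, the largest dual-use clonotype of each sample, the 3 most shared CDR3s, and the TRDJ clonotypes.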

Additional observations from a re-analysis of the deposited data

Results flagged for a closer look

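Single samples far from the rest of their group were looked for in 84 groups of 4 or 5 samples, and 5 were found where about 1 in 20 would be by chance. The mean number of inserted bases of dual-use clonotypes was 2.34 in 3 months replicate 2, above the other samples of that time. The mean J number of TRAV15D-1-DV6D-1 was 32.8 in 3 months replicate 1, and that of TRAV15-2-DV6-2 was 26.8 in 7 months replicate 1, from 9 and 10 clonotypes. TRAV14D-3-DV8 held 3.53% of the counts in 7 months replicate 4, and TRAV15-2-DV6-2 held 4.88% in 7 months replicate 5, the sample whose largest clonotype joins it to TRAJ37.

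Outside the TRAJ clonotypes, TRAV21/DV12 was joined to TRDJ1 above the limit that 0 counts allow, in a pair of sequences of 1.5 months replicate 1 (0.0105% and 0.00267%) and in the third, of 1.5 months replicate 2 (0.0119%).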

How the results depend on the processing

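Over 67 results, 889 of 938 alternative values kept their direction and side of the threshold, or their size. The differences in J number, length and inserted bases against all other TRAV genes did so under every alternative run, as did the neighbour and TRAV15 comparisons for the class. Extending the class to N and D copies gave -2.56 (stronger) and -0.553 (lost) for non-functional and shared clonotypes against all others, and -2.33 (stronger), -0.0235 (lost) and 0.00579 (lost) for non-functional clonotypes, shared clonotypes and log2 median size against own families. It also turned the difference in share of counts at 7 months to 0.0988. Weighting by counts gave -1.24 for non-functional clonotypes against all others, and against own families -0.155 inserted bases, 4.35 points without inserts (both lost) and 0.149 points non-functional, which was 0.173 with at least 10 counts. Weighting also turned the length difference at 7 months to 0.0247 and the length trend to r = 0.0534. That trend, which did not pass after adjustment over the 8, also had an unadjusted p above 0.05 with at least 2 counts (-0.492), at least 10 (-0.449), equal depth (-0.556), without carry-over (-0.530) and in the extended class (-0.306). Without carry-over the charge difference against own families was -0.0257. The cause of these changes was not tested.

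Leaving out 1 sample at a time, the length trend ran from -0.689 to -0.523, the non-functional difference against own families from -0.504 to 0.0882 (positive without 3 months replicate 3, 5 months replicate 2 or 7 months replicate 5), the clonotype share at 7 months from -0.0840 (without 7 months replicate 5) to 0.251 and the counts share from -1.45 to 0.417 (highest without 7 months replicate 2). Of the 24 time comparisons, 0 to 1 passed, the latter without 5 months replicate 1. V genes called ran from 0 to 1 at 3 months (1 without 3 months replicate 3 or 7 months replicate 5), 0 to 2 at 5 months (2 without 3 months replicate 2 or replicate 4, 1 without 5 months replicate 2 or 7 months replicate 2) and 0 to 1 at 7 months (1 without 7 months replicate 5) against 1.5 months. With at least 2 counts there were 2 and 2 at 3 and 5 months, without carry-over 2 at 5 months, and with copies merged 1 at 3 months. Merged copies carry no DV in their names, so that setting held no dual-use test. Whether the gene called there covers a dual-use gene is not given. Over the other settings, none of the 800 dual-use tests was called.

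Same-numbered samples did not deviate together (mean product of standardised deviations from -0.31 to 0.20 over 14 pairs), so the numbers were not taken to pair samples. With a replicate block, V genes called were 3, 3 and 1 at 3, 5 and 7 months, and the clonotype share at 7 months differed by -0.236. Merged by amino acid sequence, the largest clonotype of 3 months replicate 3 held 0.737%. Values of TRAV15 genes rest on few clonotypes, 2 for TRAV15D-1-DV6D-1 in 5 months replicate 2 and 4 for TRAV15-2-DV6-2 in 5 months replicate 1.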
